A study of Homo sapiens with 9 samples.

Results

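The brain-expressed X-linked (BEX) genes encode a family of small, largely unstructured proteins, and 4 of them, BEX1, BEX2, BEX4 and NGFRAP1 (the older symbol of BEX3), were followed in the human lung cancer line NCI-H1155, which has neuroendocrine features. They were found by symbol among the 23369 genes of the deposited table, and all 4 passed the filter on low values. BEX5, the remaining human family member, is given beside them. Libraries came from cells kept for 24 h after plating and then exposed for 4 h to 1 µM foretinib, to 1 µM cabozantinib or to the vehicle DMSO. Each group held 3 libraries of this 1 cell line, numbered in the labels as DMSO 2, 4 and 5, cabozantinib 3, 4 and 5, and foretinib 1, 2 and 4. The labels name them biological triplicates and do not say that they were separate cultures. Both compounds are inhibitors of several kinases, MET and KDR among them. The structures differ at 2 places: foretinib has an added fluorine on its central phenyl ring, and its quinoline bears a morpholinopropoxy chain where cabozantinib has a methoxy group.

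BEX genes lie close together on the X chromosome, in a cluster with the related TCEAL genes, and are most active in the nervous system and in cells with neural or endocrine character. BEX1 and BEX3 bind the intracellular part of NGFR (the low-affinity neurotrophin receptor). BEX1 has been linked to cell cycle exit and NF-kB signalling, and BEX3 to cell death signalled by that receptor. BEX2 takes part in LMO2-containing transcription factor complexes, and BEX4 has been tied to tubulin acetylation through the deacetylase SIRT2. BEX1 and BEX2 are known as genes that can be silenced by promoter methylation in glioma.

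The values of these libraries took part in choosing the genes, so levels and fold changes of the 4 members are descriptions with their spread and carry no p-value. Values are normalised read counts and means are given ± SD, n = 3 libraries per group. Depth ran from 26996023 to 34062153 gene-assigned reads per library. The foretinib libraries had 16.3% to 21.02% of the 12642 tested genes at 0, against 4.41% to 10.9% in the other 6. Results of the 3 comparisons are given below in one order: foretinib with DMSO first, cabozantinib with DMSO second and foretinib with cabozantinib last. Over all tested genes the median log2 fold change was -0.34, 0.04 and -0.44 in this order. Neuroendocrine markers were present, 12 of 14 being above 0 with a summed level of 83704 to 92827 in DMSO, 89323 to 96189 in cabozantinib and 88800 to 98727 in foretinib. STMN2 and GRP were at 0. Of 5 leukocyte markers 4 were at 0 in all libraries, as were 3 of 4 endothelial markers. Above 0 in some or all libraries were 5 of 6 epithelial markers, 3 of 5 fibroblast markers and 2 of 4 glial markers. The epithelial markers KRT8 and KRT18 and the fibroblast marker COL1A2 were above 0 in every library. Epithelial sums were 3962 to 6554 in DMSO, 4272 to 6674 in cabozantinib and 2603 to 5439 in foretinib. Fibroblast sums were 453 to 1345. The glial sum was 0 to 424 in DMSO, 351 to 369 in cabozantinib and 0 in all foretinib libraries, and its part in the results was not tested.

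Promoter sequences grouped the family differently from the coding sequences. The 120 bases before the start sites of the 4 members are shown because all 4 hold CACGTG, the core E-box, in capitals, and because they show which promoters resemble each other. They are RefSeq windows on GRCh38.p14, read 5′ to 3′ along the gene: chrX:103064172-103064291 on the minus strand for BEX1, chrX:103376418-103376537 on the plus strand for BEX3, chrX:103310991-103311110 on the minus strand for BEX2 and chrX:103214988-103215107 on the plus strand for BEX4.
BEX1: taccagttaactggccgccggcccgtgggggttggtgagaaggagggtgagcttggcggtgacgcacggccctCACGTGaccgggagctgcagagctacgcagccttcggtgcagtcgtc
BEX3: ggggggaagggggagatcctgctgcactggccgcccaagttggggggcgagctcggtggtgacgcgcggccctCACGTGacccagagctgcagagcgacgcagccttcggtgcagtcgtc
BEX2: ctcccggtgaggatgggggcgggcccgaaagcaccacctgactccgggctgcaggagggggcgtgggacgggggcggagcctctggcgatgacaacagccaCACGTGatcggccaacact
BEX4: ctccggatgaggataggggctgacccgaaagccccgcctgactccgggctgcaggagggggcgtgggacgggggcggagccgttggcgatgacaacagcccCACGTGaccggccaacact

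The E-box began 47 bases before the start in both BEX1 and BEX3, and 19 bases before it in both BEX2 and BEX4. Its letters, which read the same on both strands, were searched for after they had been seen in these sequences. They occurred in 2228 of 35116 RefSeq windows of 250 bases, or 6.34%. BEX3 has 3 listed windows and BEX4 has 2, of which 1 each holds the motif; the window most like that of another family member is shown. The letters CACGTG were in none of the 2 windows of BEX5, whose sequence is not shown.

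Aligned over the 250 bases before the start, BEX1 and BEX3 were 75.7% identical over 251 aligned columns and BEX2 and BEX4 85.4% identical over 254. Local alignments of BEX1 with BEX2 and of BEX1 with BEX4 reached only 52 columns each. The matching E-box positions are thus not independent observations. GC content of these windows was 65.6% in BEX1 and BEX3, 61.2% in BEX2 and 61.6% in BEX4, against a median of 58.0% over all windows. They held 19 CpG dinucleotides in BEX1, 18 in BEX3, 11 in BEX2 and 12 in BEX4, against a median of 11.

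Coding sequences paired otherwise. BEX1 and BEX2 were 92.2% identical over 384 aligned columns, whereas BEX1 and BEX3 were 55.5% and BEX2 and BEX4 61.2% identical. BEX3 was closest to BEX5, at 72.8%. This bears on how well reads can be assigned. Of the distinct stretches of 50 bases in BEX1 transcripts, 3.19% were shared with another gene, which was BEX2, and of those in BEX2 2.47% were shared, with BEX1 or BEX4. BEX4 shared 0.302%, and BEX3 and BEX5 shared 0 of 1118 and 0 of 1008. No annotated gene overlapped any of the 5 loci. Read length and the treatment of shared reads in counting were not stated in the labels, so part of the BEX1 and BEX2 reads may have been dropped or exchanged.

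Expression of the family covered a wide range. Per kilobase of exon, BEX1 stood at a mean of 30633 normalised reads over the 9 libraries (22500.3 to 38629), which ranked 31 among 12230 tested genes with a known length. NGFRAP1 followed at 11218 per kilobase (5201 to 16620, rank 104), BEX2 at 2086 (1047 to 3185, rank 688), BEX5 at 324 (153 to 508, rank 4604) and BEX4 at 153 (0 to 476, rank 7299). No library of BEX1 reached down to the highest of NGFRAP1, nor of NGFRAP1 to BEX2, nor of BEX2 to BEX5, while BEX5 and BEX4 overlapped. In whole reads BEX1 had 19934 to 33491 per library, NGFRAP1 6832 to 17167, BEX2 1240 to 3582, BEX5 161 to 540 and BEX4 0 to 637. BEX2 and BEX4, with the most alike of the promoter windows shown, stood at quite different levels. Which start sites these cells use was not tested.

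**Figure D1:**
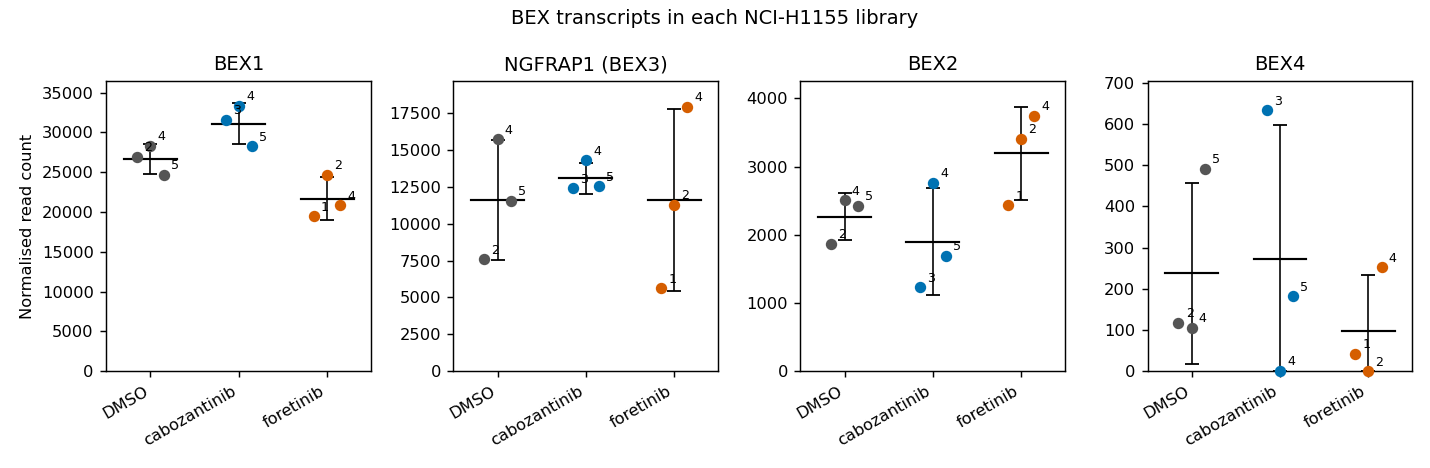
Normalised read counts (vertical axes, separate scales from 0) of the 4 members are plotted for every library as numbered dots, with the group mean as a bar and ± SD as whiskers, n = 3; whiskers that would run below 0 stop at the axis. BEX1 lies between 19440.2 and 33376 in all libraries, while BEX4 lies between 0 and 633.

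BEX1, the adaptor of neurotrophin receptor signalling, was the most abundant member. Its normalised read counts were 26931, 28359.8 and 24680.3 in DMSO replicates 2, 4 and 5. Cabozantinib replicates 3, 4 and 5 stood at 31593, 33376 and 28301, and foretinib replicates 1, 2 and 4 at 19440.2, 24675 and 20842. The 3 foretinib libraries were the lowest of the 9 and cabozantinib replicates 3 and 4 the highest. Foretinib and cabozantinib did not overlap, cabozantinib and DMSO did, and the highest foretinib library lay just under the lowest DMSO library.

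Group means of BEX1 were 26657 ± 1855 in DMSO, 31090.0 ± 2575 in cabozantinib and 21653 ± 2710.0 in foretinib. Foretinib stood at 0.812 of the DMSO mean, cabozantinib at 1.17 of it, and foretinib at 0.696 of the cabozantinib mean. On the log2(value + 1) scale the fold changes were -0.30 (SE 0.14, 95% interval -0.61 to -0.00026), 0.22 (SE 0.14, -0.08 to 0.53) and -0.53 (SE 0.14, -0.83 to -0.22). Genes of the same level, within 1.5-fold of the BEX1 mean and 107 in number, had medians of 0.02, 0.01 and 0.06. BEX1 was the 1 of 4 members whose foretinib libraries all lay below the DMSO libraries, which 7.69% of tested genes did, and below the cabozantinib libraries, which 9.70% did. No member had foretinib libraries all above DMSO (0 of 4, against 3.99% of tested genes) or all above cabozantinib (0 of 4, against 4.49%), and none had cabozantinib libraries all below (4.71%) or all above (5.18%) DMSO.

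NGFRAP1 (BEX3), the death-signalling partner of the receptor, varied widely among DMSO and among foretinib libraries and little among cabozantinib libraries. Its counts were 7584, 15754 and 11568 in DMSO, 12421, 14313 and 12535 in cabozantinib, and 5618, 11299 and 17949 in foretinib, in the same order of replicates. The lowest and the highest of the 9 libraries were both foretinib libraries, and replicate 4 was the highest in each group. The DMSO mean was 11635 ± 4085, that of cabozantinib 13089 ± 1061 and that of foretinib 11622 ± 6172.

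All 3 groups of NGFRAP1 overlapped. Log2 fold changes of NGFRAP1 were -0.09 (SE 0.35, 95% interval -0.84 to 0.66), 0.23 (-0.52 to 0.98) and -0.32 (-1.07 to 0.43). Each interval was wider than that of BEX1, so a difference between the 2 compounds of the size seen in BEX1 lies within the NGFRAP1 interval. Without foretinib replicate 1 the first and last values turned to 0.35 and 0.12. The first turned to 0.16 without DMSO replicate 4, and the second to -0.048 without DMSO replicate 2.

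BEX2, the nuclear member found with LMO2 complexes, showed the reverse order of groups to BEX1. Its counts were 1869, 2507 and 2429 in DMSO, 1232, 2766 and 1695 in cabozantinib, and 2431, 3407 and 3745 in foretinib. The 2 highest libraries were foretinib replicates 2 and 4 and the 2 lowest were cabozantinib replicates 3 and 5, but every pair of groups overlapped. Means were 2268 ± 348 in DMSO, 1898 ± 787 in cabozantinib and 3195 ± 682 in foretinib.

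For BEX2 foretinib stood at 1.41 and cabozantinib at 0.837 of the DMSO mean, and foretinib at 1.68 of the cabozantinib mean. Log2 fold changes were 0.48 (SE 0.37, 95% interval -0.32 to 1.28), -0.33 (-1.13 to 0.47) and 0.81 (0.01 to 1.61). The second was -0.055 without cabozantinib replicate 3 and -0.64 without cabozantinib replicate 4, and the last 0.54 without cabozantinib replicate 3. After subtraction of the medians of 2263 genes at the BEX2 level they were 0.51, -0.34 and 0.84.

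BEX4, the member tied to SIRT2 and microtubules, was low and scattered. Its counts were 117, 105 and 491 in DMSO, 633, 0.997 and 182 in cabozantinib, and 41.9, 0 and 253 in foretinib. Cabozantinib thus held both the highest library, with 637 reads, and one with a single read, the value of 0.997 being 1 read. Means of 238 ± 219 in DMSO, 272 ± 325 in cabozantinib and 98.3 ± 136 in foretinib had SDs near or above their size.

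With this spread no direction could be read for BEX4. Its log2 fold changes were -3.05 (SE 2.83, 95% interval -9.15 to 3.05), -1.58 (-7.68 to 4.52) and -1.47 (-7.57 to 4.63), the second being below 0 although cabozantinib had the higher mean. The 1688 genes at the level of BEX4 had medians of -2.06, 0.30 and -2.42. Foretinib libraries had the most genes at 0, and the part of this in the BEX4 values was not tested.

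BEX5 was about as low as BEX4, with no library near 0. Its counts were 368, 162 and 357 in DMSO, 365, 538 and 409 in cabozantinib, and 369, 286 and 236 in foretinib, with reads in all 9 libraries. BEX5 did not pass in any comparison (limma log2 fold changes 0.08, 0.64 and -0.56, adjusted p = 0.989, 1.00 and 0.852). Its coefficient of variation was 39.3% in DMSO, 20.6% in cabozantinib and 22.6% in foretinib, against medians of 63.1%, 51.8% and 109% among 2173 genes at its level. Of these genes 23.9%, 11.4% and 1.07% varied less.

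**Figure D2:**
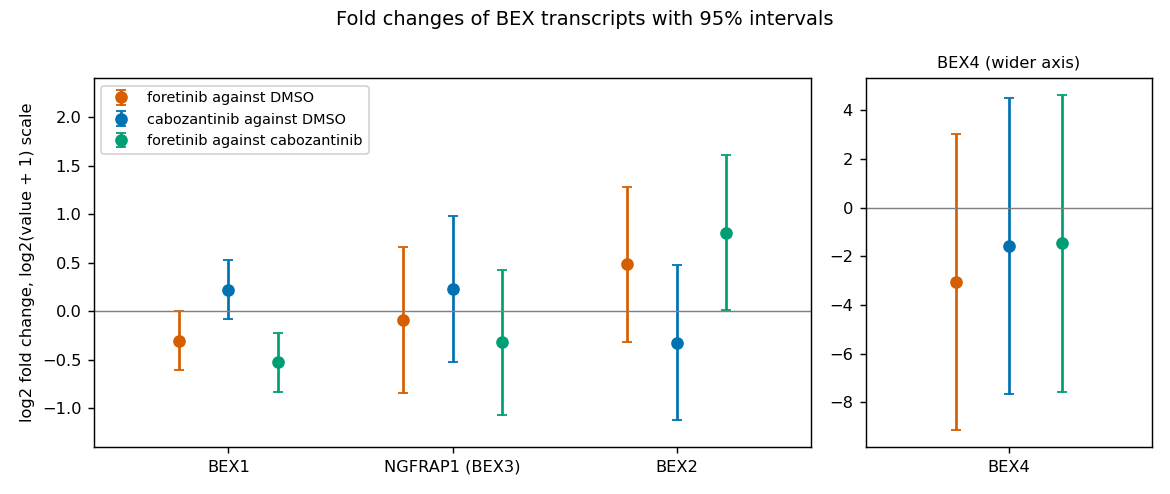
Log2 fold changes on the log2(value + 1) scale (vertical axes) are plotted for each member and comparison as dots with 95% intervals of the limma fit; BEX4 has its own, wider axis. The points of BEX1 and BEX2 lie on opposite sides of 0 in each comparison, at -0.53 and 0.81 between the 2 compounds.

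By limma on all genes, 0 of 4 members were called in each of the 3 comparisons, where the share called was 0% of the 12642 tested genes. At an unadjusted p under 0.05 limma gave 1146, 166 and 1252 genes. edgeR on recovered reads called 0 genes in each. DESeq2 called 650 (5.14%), 47 (0.372%) and 618 (4.89%) genes, with 0 of 4 members in both comparisons with DMSO and 1 of 4, BEX1, lower in foretinib than in cabozantinib. The members were chosen with values of these libraries known, so the call of BEX1 is a description and no test of it. Both comparisons with DMSO share the same 3 control libraries, and both comparisons with foretinib share the foretinib libraries.

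The balance between BEX1 and BEX2 was compared within libraries, where scaling cancels. BEX1 reads per BEX2 read were 14.4, 11.3 and 10.2 in DMSO, 25.7, 12.1 and 16.7 in cabozantinib, and 7.996, 7.24 and 5.57 in foretinib. Every foretinib library was below the other 6, and DMSO and cabozantinib overlapped. Group means were 11.96 ± 2.197, 18.1 ± 6.91 and 6.93 ± 1.24 in the same order of groups. This ratio was formed after the values had been seen and repeats the levels of BEX1 and BEX2 given above, so it is no separate evidence. BEX2 made up 5.12% to 6.20% of the summed reads of the 4 members in DMSO, 2.68% to 5.48% in cabozantinib and 8.65% to 8.83% in foretinib.

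The ratio of BEX1 to NGFRAP1 showed no such order, at 1.80 to 3.55 in DMSO, 2.26 to 2.54 in cabozantinib and 1.16 to 3.46 in foretinib. Summed over the 4 members, the family had means of 40799 ± 5304 (DMSO), 46349 ± 3893 (cabozantinib) and 36568 ± 8009 (foretinib), with overlap between all groups. Relative to DMSO the foretinib mean was 0.896 and the cabozantinib mean 1.14, and foretinib was at 0.789 of cabozantinib. BEX1 and NGFRAP1 carried nearly all of the sum, BEX1 alone 48.7% to 73.8%.

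**Figure D3:**
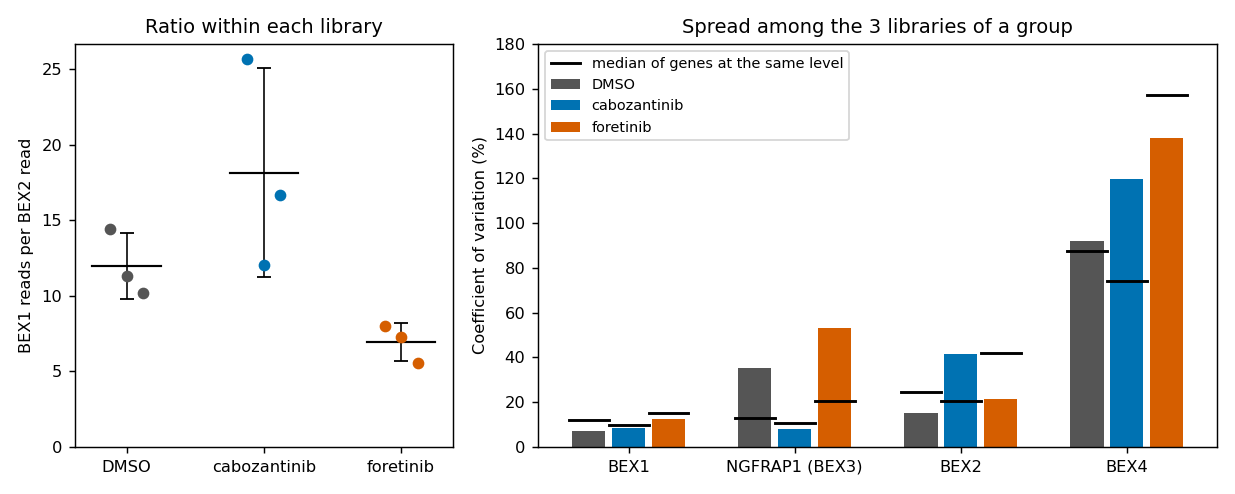
On the left, BEX1 reads per BEX2 read are plotted as 1 dot per library, with bars for group means ± SD, n = 3; foretinib lies at 5.57 to 7.996 and the other groups at 10.2 to 25.7. On the right, bars give the coefficient of variation (percent) among the 3 libraries of a group, and black lines the median of genes at the same level; NGFRAP1 bars reach 35.1% in DMSO and 53.1% in foretinib against lines at 12.9% and 20.4%.

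Spread between replicates differed among members and from genes of like level. BEX1 had a coefficient of variation of 6.96% in DMSO, 8.28% in cabozantinib and 12.5% in foretinib, below the medians of 11.9%, 9.97% and 15.4% for genes of its level. NGFRAP1 had 35.1%, 8.10% and 53.1%, against medians of 12.9%, 10.6% and 20.4% among 366 genes. In DMSO 98.4% of those genes varied less than NGFRAP1 and in foretinib 99.2%, but in cabozantinib 35.5%. BEX2 was even in DMSO and foretinib, at 15.3% and 21.4%, and scattered in cabozantinib, at 41.5%, where 93.5% of 2263 genes varied less. With 3 libraries per group each of these values is itself imprecise.

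Correlations between members differed by pair and by whether the group means were kept. Pearson's r of log2 values over the 9 libraries was -0.50 between BEX1 and BEX2, 0.39 between BEX1 and NGFRAP1 and 0.25 between BEX2 and NGFRAP1. After the group means were removed these became 0.37, 0.35 and 0.63, all positive. The negative value between BEX1 and BEX2 thus rested on differences between group means. BEX4 had r of -0.10 with BEX1, -0.52 with BEX2 and 0.06 with NGFRAP1, which became -0.71, -0.55 and 0.04 after the group means were removed. All points share library, depth and scaling, and with 9 libraries these are descriptions.

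Genes whose pattern over the 9 libraries was most like a member's were sought among 7802 tested genes with a mean of at least 500. For BEX1 they were MTIF3 (r = 0.93), a mitochondrial translation initiation factor, EDF1 (0.91), a transcriptional coactivator, and USP5 (0.91), a deubiquitinase. NGFRAP1 was nearest to PPIP5K2 (0.96), an inositol phosphate kinase, PTMA (0.95), prothymosin alpha, and CENPA (0.95), the centromeric histone H3 variant. BEX2 was nearest to SLC25A15 (0.90), a mitochondrial ornithine carrier, RHOBTB3 (0.89) and HPCAL1 (0.88), a calcium sensor of neurons. BEX4 was nearest to HDHD2 (0.95), FAM104A (0.92) and ZNF507 (0.92). None of these genes was nearest to more than 1 member, and with so many candidates and 9 points these are descriptions.

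The cluster around the BEX genes was uneven in the same cells. Of 22 neighbours on Xq22, TCEAL and ARMCX genes among them, 16 were tested, and TCEAL5, TCEAL7 and RAB40A were at 0 in all libraries although BEX2 lies between TCEAL5 and TCEAL7. Per kilobase MORF4L2, a chromatin protein, had the highest mean of the neighbours at 6664, followed by TCEAL8 at 4361 and WBP5 (TCEAL9) at 4160, all below the mean of NGFRAP1.

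By limma over all genes 0 of 16 tested neighbours were called higher or lower in each of the 3 comparisons. Their median log2 fold changes were -0.72, 0.01 and -0.42, beside -0.34, 0.04 and -0.44 over all tested genes. TCEAL3, of the family of transcription elongation factor A-like proteins, had counts of 1486, 2232 and 2453 in DMSO, 2089, 1709 and 2424 in cabozantinib and 844, 978 and 1137 in foretinib. Its foretinib libraries lay below the other 6 and it did not pass over all genes (limma log2 fold change -1.04, 95% interval -1.91 to -0.17, adjusted p = 0.501 against DMSO, and -1.07, adjusted p = 0.430 against cabozantinib). Foretinib libraries lay wholly below DMSO for 1 of the 16 tested neighbours (7.69% of all tested genes) and wholly below cabozantinib for 3 (9.70%). TCEAL8 and WBP5 stood at 5688 ± 1393 and 8353 ± 1133 in foretinib against 5123 ± 806 and 8582 ± 682 in DMSO.

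**Figure D4:**
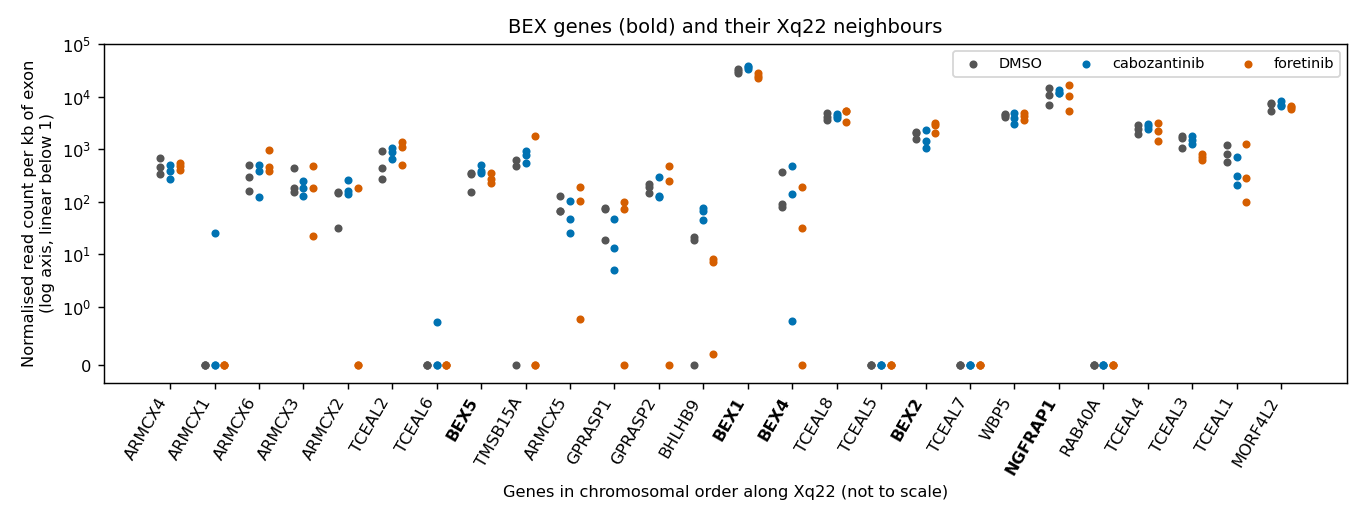
Normalised read counts per kilobase of exon (log axis, linear below 1) are plotted for every library as dots coloured by treatment, for the BEX genes (bold) and neighbours in their order along Xq22, not to scale. BEX1 has the highest mean at 30633, and TCEAL5, TCEAL7 and RAB40A are at 0 in every library.

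The receptor that BEX1 and BEX3 bind was scarce in these libraries. NGFR was listed at 0 in all 3 DMSO libraries and in 2 foretinib libraries, with 656 in foretinib replicate 4, and at 101, 50.8 and 0 in cabozantinib. It did not pass by limma (adjusted p = 0.666 and 1.00 for the comparisons with DMSO), while DESeq2 called it in both (adjusted p = 3.4e-09 and 2.6e-07, the lowest of 17 alternatives that ran up to 1.0). Its coreceptor SORT1, sortilin, had means of 2182 ± 968 (DMSO), 2287 ± 290 (cabozantinib) and 1117 ± 424 (foretinib). SORT1 did not pass (limma log2 fold change -0.93, 95% interval -1.91 to 0.05, adjusted p = 0.531 with DMSO, and -1.09, adjusted p = 0.475 with cabozantinib as reference). Its foretinib libraries lay below all cabozantinib libraries, as for 1 of 15 tested genes of the neurotrophin list and 9.70% of all tested genes. NTRK2 and NTRK3, receptors of BDNF and NT-3, were at 0 in all libraries. DESeq2 also called NTF3, the NTRK3 ligand, in both comparisons of foretinib; it was listed at 0 in all 3 foretinib, 2 cabozantinib and 1 DMSO libraries, and limma did not call it (adjusted p = 0.537 with DMSO as reference).

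Levels of genes downstream of the receptor differed widely. MAGED1, which like BEX3 binds NGFR, had means of 10582 ± 1767, 9193 ± 2026 and 10995 ± 2918 under DMSO, cabozantinib and foretinib. YWHAE, an adaptor that binds BEX3, had 50377 ± 9959, 59186 ± 2504 and 48607 ± 8567. RHOA, the GTPase that NGFR regulates, was at 13814 on average in DMSO, 13371 in cabozantinib and 12367 in foretinib. TRAF2, TRAF4 and TRAF6, adaptors of receptor signalling, had means over all 9 libraries of 553, 1022 and 968, and the kinase RIPK2 939. By group TRAF4 was at 1666 ± 588 (DMSO), 799 ± 32.1 (cabozantinib) and 601 ± 750 (foretinib). Its cabozantinib libraries lay wholly below DMSO, as for 1 of 15 tested genes of the list and 4.71% of all tested genes. Its foretinib libraries overlapped with DMSO. Of 22 genes in the neurotrophin list 15 were tested and limma called 0 in each comparison, with median log2 fold changes of -0.06, -0.03 and -0.47.

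Among 16 reported partners of BEX proteins 14 were tested, and limma called 0 in each comparison; their median log2 fold changes were 0.00068, -0.04 and 0.07 in the same order. LMO2, the partner of BEX2, was at 0 in all foretinib libraries and in 2 DMSO libraries, with a highest value of 167. SIRT2 had means of 908 ± 355 (DMSO), 586 ± 11.2 (cabozantinib) and 650.4 ± 112 (foretinib). PLK1, a mitotic kinase reported to phosphorylate BEX4, was at 3126 ± 455, 1934 ± 759 and 2078 ± 67.1 (limma log2 fold change -0.58, adjusted p = 0.552 for foretinib with DMSO). TUBA1A, an alpha-tubulin, was at 19783 ± 1447, 20351 ± 881 and 29507 ± 5355, the foretinib libraries lying above the other 6. Foretinib libraries lay wholly above DMSO for 1 of the 14 tested partners (3.99% of all tested genes) and wholly above cabozantinib for 1 (4.49%). They lay wholly below DMSO for 1, PLK1 (7.69%), and wholly below cabozantinib for 0 (9.70%). Cabozantinib libraries lay wholly below DMSO for 2 partners (4.71%) and wholly above for 0 (5.18%). TUBA1A had the smallest adjusted p of this list and did not pass by limma (log2 fold change 0.56, 95% interval 0.24 to 0.89, adjusted p = 0.358 with DMSO, and 0.52, adjusted p = 0.377 with cabozantinib as reference). DESeq2 alone among 18 alternatives called it (adjusted p = 0.00353 and 0.0102, the others reaching 0.717 and 0.722). Reads of near-identical tubulin genes may have been split by the counting.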

How the data were processed

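The authors deposited 1 signal value per gene and library, a read count divided by a size factor. Tools named in the submitters' processing notes are TopHat2 2.0.13, Cufflinks 2.2.1, HTSeq and DESeq2, with the build hs37d5; their roles, the annotation, strand setting and read length are not given there. Dividing each column by its smallest step gave whole reads for 100% of values (tolerance 1e-06); an automatic check could not verify this in 3 columns, so count tests are alternatives. No 2 libraries of the same group agreed within sampling noise. Chi-square per degree of freedom was 140 to 229 in DMSO, 124 to 145 in cabozantinib and 545 to 553 in foretinib. The limma model used 1 estimate of spread per gene for all groups, so its intervals do not reflect this difference.

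The test took the 12642 genes that reached 10 in 3 libraries or more, as log2(value + 1) with limma 3.58.1 (trend, R 4.3.3), all 9 libraries in 1 model without covariates, Benjamini-Hochberg adjusted p below 0.05. Fits were checked on simulated data with the same dispersion, a measure of spread, for all genes. That check does not cover the spread and the zeros of these libraries. Alternatives were other pseudocounts, filters and scalings, edgeR 4.0.16, DESeq2 1.42.0 (with a local dispersion trend), a replicate block and leaving out each library.

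Per-kilobase values use exon unions of GENCODE 29, matched by symbol or RefSeq synonym for 96.7% of tested genes; alignments used Biopython 1.88. Promoters are RefSeq sequences of GRCh38.p14, another build than the authors'. Members, lists and naming rules were chosen with earlier results of these data known. The rule named the family, the 5 most abundant and the 3 smallest-p genes of each list, some fixed genes, and the 3 genes most like each member. p-values measure the spread between these libraries. Intervals and reads cover no amplification error, since molecules were not identified.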

Additional observations from a re-analysis of the deposited data

How the results depend on the processing

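Counts of called genes depended on the tool. DESeq2 called 650, 47 and 618 genes in foretinib against DMSO, cabozantinib against DMSO and foretinib against cabozantinib, and quantile normalisation 1 gene in the first, against 0 by limma; leaving out each library gave 0 to 0. Over 18 alternatives each, which include scaling by total reads (chosen after seeing the data), BEX1 and BEX2 kept their sign in all 3 comparisons, BEX1 at -0.62 to -0.45 and BEX2 at 0.54 to 1.12 for foretinib against cabozantinib, and BEX2 at -0.64 to -0.055 for cabozantinib against DMSO. NGFRAP1 kept its sign in 15, 17 and 16 of 18 alternatives and BEX4 in 17, 14 and 13 of 17, having no value at a mean of 500 or more. Without each library in turn NGFRAP1 ran from -0.71 to 0.12 and BEX4 from -3.94 to 0.77 for foretinib against cabozantinib. Deviations of same-numbered libraries from their group means showed little correlation (r -0.02 to 0.03). With few such pairs, this cannot tell whether the title numbers mark a shared culture or run. With a replicate block NGFRAP1 was at 0.37 and BEX4 at 2.84 for foretinib against cabozantinib, and limma called 0 genes. The cause was not tested.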

Other observations

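NF-kB signalling has been linked to BEX1 and BEX2. Of its 16 components and targets 12 were tested and limma called 0 in each comparison, with median log2 fold changes of -1.78 (foretinib with DMSO), -0.28 (cabozantinib with DMSO) and -1.45 (foretinib with cabozantinib), beside -0.34, 0.04 and -0.44 over all tested genes. RELA, the activating subunit, had means of 2510.0 ± 793 (DMSO), 2581 ± 289 (cabozantinib) and 2992 ± 1105 (foretinib). NFKBIE, an inhibitor of the pathway, was at 319 ± 140, 130.3 ± 117 and 5.58 ± 9.66 (limma adjusted p = 0.511 for foretinib against DMSO). CCL2, a chemokine, was listed at 0 in all foretinib libraries and did not pass by limma (adjusted p = 0.492 against DMSO), while DESeq2 called it (adjusted p = 0.00172, the lowest of 17 alternatives that ran up to 0.782). NFKBIE and CCL2 were low, with means of 152 and 175 over all libraries. The 1688 genes at the level of BEX4, which is near that of NFKBIE and CCL2, had medians of -2.06, 0.30 and -2.42 in the same order. Other genes of the list stood well above that level, with means of 2694 for RELA, 1322 for NFKBIA and 893 for REL. These medians therefore do not describe genes at the level of the whole list. Foretinib libraries had more genes at 0 than the others, and the part of this in the values of the list was not tested.

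Of 17 apoptosis genes all 17 were tested and limma called 0 in each comparison, with median log2 fold changes of -0.24, 0.08 and -0.65. CYCS, cytochrome c, had means of 7857 ± 1814 (DMSO), 9711 ± 1183 (cabozantinib) and 7437 ± 500.2 (foretinib).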
